A study of Mus musculus with 4 samples.

Results

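Genes listed as markers or secreted products of activated cardiac fibroblasts were followed in mouse hearts, 10 in number: Postn, Cthrc1, Cilp, Tnc, Mfap4, Mfap5, Fn1, Sparc, Tcf21 and Prg4. Tcf21 is an exception in kind, since it encodes a transcription factor of resting fibroblasts. The genes were selected by symbol, and all 10 of the 10 symbols were found among the 12408 genes with values. The selection was made with the levels of these genes in the same libraries already known, so the values below are a description and no gene was tested. RNA sequencing was done on hearts of 4 mice of the C57BL/6 strain, each 3 months old and each in a group of its own. Both control mice, called CT, carried floxed copies of WW45 (gene symbol Sav1), an adaptor of the Hippo kinase pathway, and no Cre. Both knockout mice, called cKO, carried the same floxed copies and a Cre recombinase under the alpha-MHC promoter, which is active in cardiomyocytes and not in fibroblasts. In each genotype, 1 mouse was left at baseline and 1 was studied 4 weeks after transverse aortic constriction (TAC), in which the aorta is narrowed by surgery so that the left ventricle pumps against a higher pressure. No library is labelled as sham-operated or as Cre without floxed WW45, so load and surgery, and deletion and Cre, cannot be told apart.

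Fibroblasts make and maintain the collagen network of the heart. Under pressure load they become activated: they divide, take on contractile features and secrete matricellular proteins, which sit in the matrix and tune how cells attach to it and how collagen is assembled. In whole tissue, fewer cells of a type and less RNA per cell cannot be told apart. Periostin, tenascin C and SPARC are matricellular proteins, fibronectin is the early scaffold of new matrix, MFAP4 and MFAP5 bind elastic microfibrils, and CILP and CTHRC1 are secreted by activated fibroblasts of injured hearts. Tcf21 encodes a transcription factor of resting fibroblasts and their epicardial precursors, and Prg4 encodes lubricin, a lubricating glycoprotein best known from joints.

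The 4 libraries held between 1587840 and 2796547 recovered reads, with a median of 30 to 48 reads per gene. Levels are in CPM, the usual depth-scaled read count, on the library sizes as scaled by the authors. Intervals are 95% counting intervals, exact Poisson for a level and Clopper-Pearson for a ratio of 2 libraries, and they leave out the spread between mice. A gene is called past 2-fold when the deposited log2 values of the 2 libraries differ by at least 1 and the interval of the ratio excludes 1. Each group is 1 mouse, so there is no replicate error, no p-value is given, and each ratio compares 2 libraries, not 2 conditions. Sav1, the targeted gene, had 49.3 CPM in CT baseline, 39.8 in cKO baseline, 35.4 in CT TAC and 46.2 in the library labelled cKO TAC, so its level did not separate the genotypes as labelled. Values per gene do not show which exons were read. Every cKO direction below is that of the libraries so labelled. Cardiomyocyte markers (9 of 9 listed) summed to between 101603 and 132025 CPM. The 9 fibroblast markers, Tcf21 among them, were all listed, with sums of 1525 CPM in CT baseline, 2545 in cKO baseline, 5133 in CT TAC and 5572 in cKO TAC. With TAC 6 of them were higher past 2-fold in each genotype: Dcn, Lum, Col1a1, Col1a2, Col3a1 and Tcf21. The other 3, Pdgfra, Dpt and Ddr2, were not past 2-fold. Col1a1, Col1a2 and Col3a1 are also on the list of activation and scar genes below, so the sum is not a measure of fibroblast number.

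Most of the 10 genes were higher in the loaded CT heart than in the unloaded one. Their summed level was 588 CPM in CT baseline and 3799 in CT TAC, 6.46 times as much, and it was 1217 in cKO baseline and 4642 in cKO TAC. Past 2-fold were 9 of 10 genes in CT TAC over CT baseline, all higher, against 6.06% of all genes higher and 4.68% lower. The median log2 ratio of the 10 was 2.56, and that of all genes was 0.01. In cKO TAC over cKO baseline 8 of 10 were past 2-fold and higher, with a median of 1.71, against 3.68% of all genes higher and 2.84% lower. In cKO baseline over CT baseline 6 of 10 were past 2-fold and higher, with a median of 1.75, or 1.68 with Cthrc1, which had no read in CT baseline, at its lower bound. Of all genes 3.26% were higher and 1.79% lower in that pair. In cKO TAC over CT TAC 2 of 10 were past 2-fold and higher, against 2.93% of all genes higher and 2.1% lower, and the median was 0.33. The choice of genes used these same ratios, so the shares are set side by side and nothing is read from them.

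**Figure D1:**
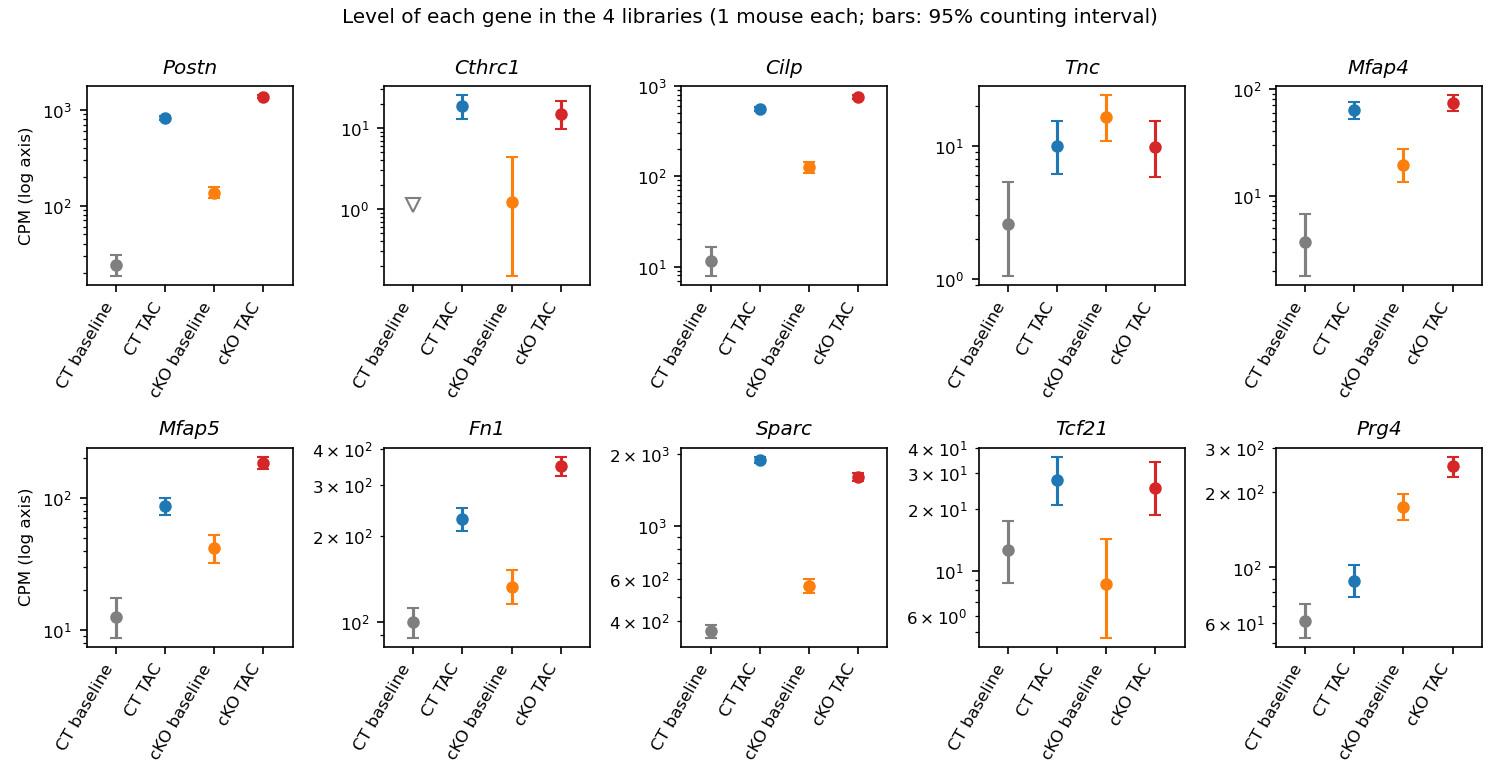
Level of each of the 10 genes in CPM (log axis, separate scale per gene) in the 4 libraries of 1 mouse each, with 95% Poisson counting intervals; the open triangle is the level that 3 reads would give where Cthrc1 had 0. Both TAC libraries stand above both baseline libraries for 8 genes, while Tnc was highest in cKO baseline and Prg4 was higher in both cKO libraries than in either CT library.

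Among the 9 genes with reads in every library, Postn and Cilp had the largest ratios of TAC over baseline in both genotypes. Postn (mm10 chromosome 3, 54361109 to 54391037, plus strand) encodes periostin, a matricellular protein and the usual marker of activated cardiac fibroblasts. Cilp (chromosome 9, 65265180 to 65280605, plus strand) encodes cartilage intermediate layer protein, a secreted protein that binds TGF-beta. The 80 bases before a RefSeq start of each gene, on GRCm38.p6, are shown first. Postn and Cilp had the same order of libraries, but that order is not particular to them. Mfap4, Mfap5 and Fn1, for which no promoter window was available, had it too. The 80 bases of Tnc, whose order differed, are shown with those of Postn and Cilp. Where Postn and Tnc had another listed start, the start whose window holds TATATAA is shown. For Tnc this start lies 79 bases inside the gene as annotated. Capitals mark matches to TATAAA or TATATAA, which overlap each other.
Postn, chr3:54361027-54361106, plus strand: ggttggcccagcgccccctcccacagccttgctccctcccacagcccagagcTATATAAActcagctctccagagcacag
Cilp, chr9:65265100-65265179, plus strand: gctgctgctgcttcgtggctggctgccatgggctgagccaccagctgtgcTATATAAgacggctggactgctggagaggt
Tnc, chr4:64046937-64047016, minus strand: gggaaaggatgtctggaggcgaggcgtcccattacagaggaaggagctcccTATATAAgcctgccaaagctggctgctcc

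The RefSeq table held promoter windows of 300 bases (250 before the start, 50 after) for 5 of the 10 genes: Postn, Cilp, Tnc, Sparc and Tcf21. Cthrc1, Mfap4, Mfap5, Fn1 and Prg4 have no entry. The start listed for Sparc lies 3103 bases inside the gene as annotated, so the bases before its annotated start were not searched. TATATAA, searched on both strands, began 28 bases before the start in Postn, 30 in Cilp and 29 in Tnc, and was not in the windows of Sparc or Tcf21 or at a second listed start of Postn. It was held by 3.24% of the 32851 promoter windows in that source. This motif was added to the search after the sequences had been seen, and Tnc has another listed start, 79 bases upstream, whose window does not hold it. Neither GGAATG, the core bound by TEAD factors (in 14.7% of all windows), nor TGANTCA, the AP-1 site (7.81%), nor the SMAD palindrome GTCTAGAC (0.213%) occurred on either strand in the windows of these 5 genes. TATAAA (13.6% of all windows) occurred in Postn and Tnc. These are letter matches, not measured binding.

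Postn had 64 reads or 23.7 CPM (interval 18.3 to 30.3) in CT baseline, 136 CPM (119 to 155) in cKO baseline, 826 (786 to 867) in CT TAC and 1368 (1315 to 1422) in cKO TAC. All 4 libraries stood apart from their neighbours in that order beyond counting error. TAC over baseline was 34.8-fold in CT (27.1 to 45.4) and 10.1-fold in cKO (8.78 to 11.6), which ranked it 7th and 17th from the top of 12408 genes. At baseline cKO was 5.73-fold above CT (4.32 to 7.68). Under TAC it was 1.66-fold above CT (1.56 to 1.76), which is short of 2-fold. The recovered Postn reads were not whole in every library (1654.4 in CT TAC), as when reads are divided between features, so its level is uncertain to an unknown degree.

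Cilp followed the same order. It had 31 reads or 11.5 CPM (7.81 to 16.3) in CT baseline, 127 CPM (110 to 145) in cKO baseline, 556 (523 to 589) in CT TAC and 753 (714 to 794) in cKO TAC. Again no neighbours in the order overlapped within counting error. TAC over baseline was 48.3-fold in CT (33.9 to 71.5), the second highest log2 ratio of all genes, and 5.95-fold in cKO (5.14 to 6.92). At baseline cKO was 11-fold above CT (7.53 to 16.6), ranking 6th of all genes, and under TAC 1.36-fold (1.25 to 1.47).

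Cthrc1 (chromosome 15, 39076932 to 39087121, plus strand) encodes a secreted collagen triple helix repeat protein made by fibroblasts of the healing infarct. It had 0 reads in CT baseline, where 3 reads would be 1.11 CPM, and 2 reads in cKO baseline. In the loaded hearts it had 37 reads (18.5 CPM, 13.0 to 25.5) in CT and 27 reads (14.7 CPM, 9.68 to 21.4) in cKO. The baseline libraries did not differ beyond counting error, and neither did the TAC libraries. With CT baseline set to the floor of 3 reads, CT TAC was at least 16.6-fold higher. The counting interval of the same ratio, taken on 0 reads, begins at 12.8. On 2 reads in cKO baseline, cKO TAC was 12.0-fold higher with an interval of 3.02 to 104.

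Mfap4 and Mfap5 share a name root and bind the same microfibrils, though their proteins belong to different families: MFAP4 has a fibrinogen-like domain, and MFAP5 is a small microfibril-associated glycoprotein. Mfap4 (chromosome 11, 61485431 to 61488900, plus strand) had 3.71 CPM (1.78 to 6.82, 10 reads) in CT baseline, 19.6 (13.4 to 27.6) in cKO baseline, 63.4 (52.8 to 75.4) in CT TAC and 74.0 (62.1 to 87.5) in cKO TAC. The TAC libraries did not differ beyond counting error, at 1.17-fold (0.909 to 1.5). The load ratio was 17.1-fold in CT (9.0 to 36.5) and 3.78-fold in cKO (2.56 to 5.74). Mapk7 shares 89 exonic bases with Mfap4 on the opposite strand and had 10.5 to 18.9 CPM. Whether the counting used strand is not given in the sources used here.

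Mfap5 (chromosome 6, 122505845 to 122529290, plus strand) had 12.6 CPM (8.73 to 17.6) in CT baseline, 41.6 (32.3 to 52.7) in cKO baseline, 86.4 (74.0 to 100.2) in CT TAC and 185 (166 to 206) in cKO TAC. Each library in this order stood above the one before it. With Prg4 it was 1 of the 2 genes past 2-fold between the loaded hearts, at 2.15-fold in cKO over CT (1.78 to 2.59). Load ratios were 6.85-fold in CT (4.72 to 10.2) and 4.46-fold in cKO (3.43 to 5.87).

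Sparc and Fn1 had sizeable levels in every library, so their ratios carry little counting error. Sparc (chromosome 11, 55394500 to 55423183, minus strand) encodes a collagen-binding glycoprotein that helps process procollagen. It had 361 CPM (338 to 384) in CT baseline, 559.7 (524 to 597) in cKO baseline, 1609 (1551 to 1668) in cKO TAC and 1895 (1835 to 1956) in CT TAC. It was the only one of the 9 genes past 2-fold under load in CT whose CT TAC level lay above cKO TAC beyond counting error, by 1.18-fold (1.12 to 1.24). TAC over baseline was 5.25-fold in CT (4.90 to 5.64) and 2.87-fold in cKO (2.67 to 3.10), and cKO over CT at baseline was 1.55-fold (1.42 to 1.70).

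Fn1 (chromosome 1, 71585520 to 71653200, minus strand) encodes fibronectin, whose plasma form comes from liver and whose cellular form is made in the tissue. Gene-level values do not separate its spliced forms. It had 99.8 CPM (88.2 to 112) in CT baseline, 132 (115 to 151) in cKO baseline, 228 (208 to 250) in CT TAC and 349 (323 to 377) in cKO TAC. The load ratios were among the smallest of the genes past 2-fold, at 2.29-fold in CT (1.97 to 2.68) and 2.64-fold in cKO (2.25 to 3.08). Its recovered reads were not whole either.

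Tnc (chromosome 4, 63959785 to 64047015, minus strand) encodes tenascin C, an anti-adhesive protein of developing and injured tissue that is scarce in the healthy adult heart. It was not past 2-fold with TAC in the cKO libraries. Reads were few: 7 in CT baseline (2.59 CPM, 1.04 to 5.35), 20 in CT TAC (9.98, 6.10 to 15.4), 27 in cKO baseline (16.5, 10.9 to 24.0) and 18 in cKO TAC (9.79, 5.80 to 15.5). The 3 libraries other than CT baseline did not differ from their neighbours in the order beyond counting error. CT TAC was 3.85-fold above CT baseline (1.56 to 10.8), and cKO baseline was 6.36-fold above it (2.70 to 17.3). Within cKO the TAC library was 0.593 times the baseline library (0.307 to 1.12).

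Prg4 (chromosome 1, 150449412 to 150466165, minus strand) separated the libraries by genotype label more than by load. It had 61.3 CPM (52.4 to 71.4) in CT baseline, 88.6 (76.0 to 103) in CT TAC, 174 (155 to 196) in cKO baseline and 253 (231 to 278) in cKO TAC. Both cKO libraries lay above both CT libraries, 2.84-fold at baseline (2.33 to 3.45) and 2.86-fold under TAC (2.39 to 3.41). The load ratios were short of 2-fold and close in size, 1.44-fold in CT (1.16 to 1.79) and 1.45-fold in cKO (1.25 to 1.69). The recovered Prg4 reads were not whole in the CT libraries. Tpr, which shares 204 exonic bases with it on the opposite strand, had between 484 and 600.0 CPM, lowest in cKO baseline and highest in CT TAC.

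Tcf21 (chromosome 10, 22817281 to 22820174, minus strand) is the only transcription factor among the 10, and it marks the resting state. It was higher in the loaded hearts, with 12.6 CPM (8.73 to 17.6, 34 reads) in CT baseline and 28.0 (21.1 to 36.3, 56 reads) in CT TAC. In cKO it had 8.56 CPM (4.68 to 14.4, 14 reads) at baseline and 25.6 (18.8 to 34.0, 47 reads) under TAC. The genotypes did not differ beyond counting error at baseline or under TAC. Load ratios were 2.22-fold in CT (1.42 to 3.50) and 2.98-fold in cKO (1.62 to 5.87). On 14 to 56 reads per library, differences well short of 2-fold would not be detectable for Tcf21 at this depth.

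**Figure D2:**
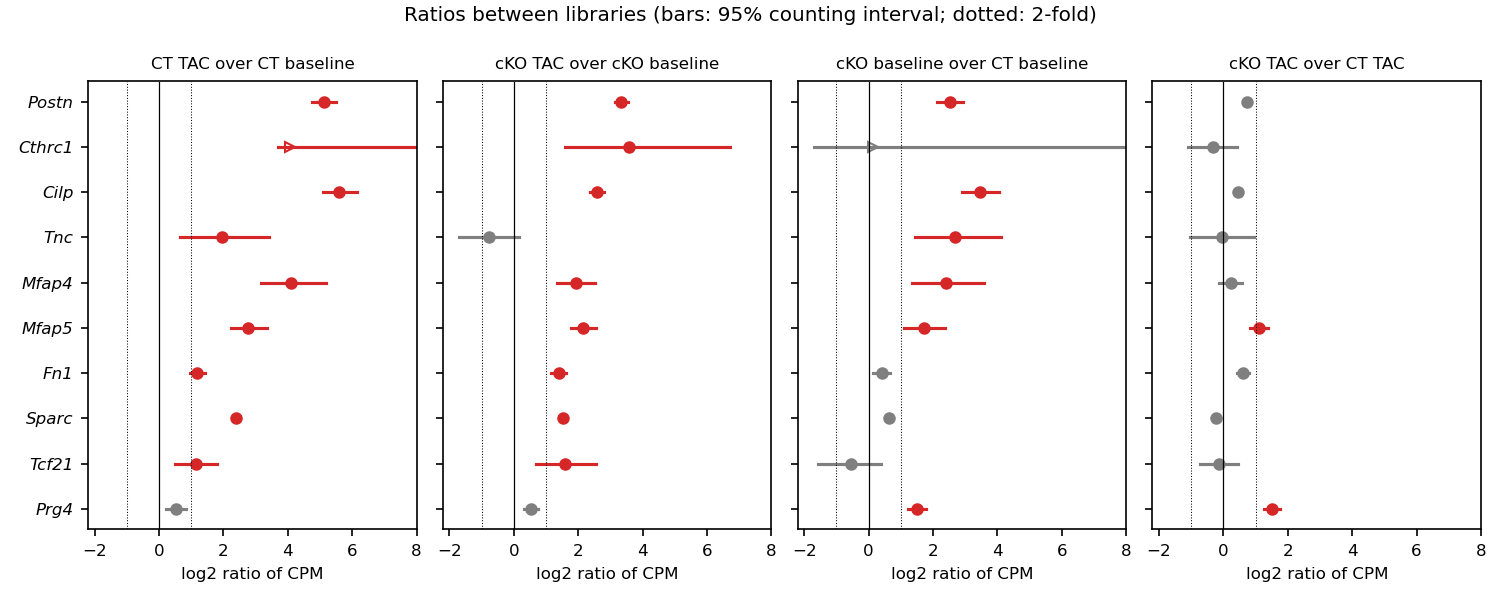
Log2 ratio of CPM for each gene in the 4 pairs of libraries, with 95% counting intervals; red marks genes past 2-fold, dotted lines mark 2-fold, and open triangles are lower bounds for Cthrc1, whose bars run off the axis. In cKO TAC over CT TAC only Mfap5 and Prg4 are red, against 9 of 10 genes in CT TAC over CT baseline.

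Per kilobase of exon, Sparc was the most abundant of the 10 in every library, at 95.2 CPM per kb in CT baseline and 500.2 in CT TAC. Prg4 came second in both baseline libraries, with 14.3 CPM per kb in CT and 40.7 in cKO. Cilp took that place under TAC, with 131 CPM per kb in CT and 177 in cKO, followed by Postn with 94.9 and 157. At the other end stood Tnc and Cthrc1, each at most 11.6 CPM per kb in any library. The make-up of the summed CPM also differed between libraries. Sparc made up 61.3% of the 10 genes' sum in CT baseline and 34.7% in cKO TAC, while Postn made up 4.03% and 29.5%.

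**Figure D3:**
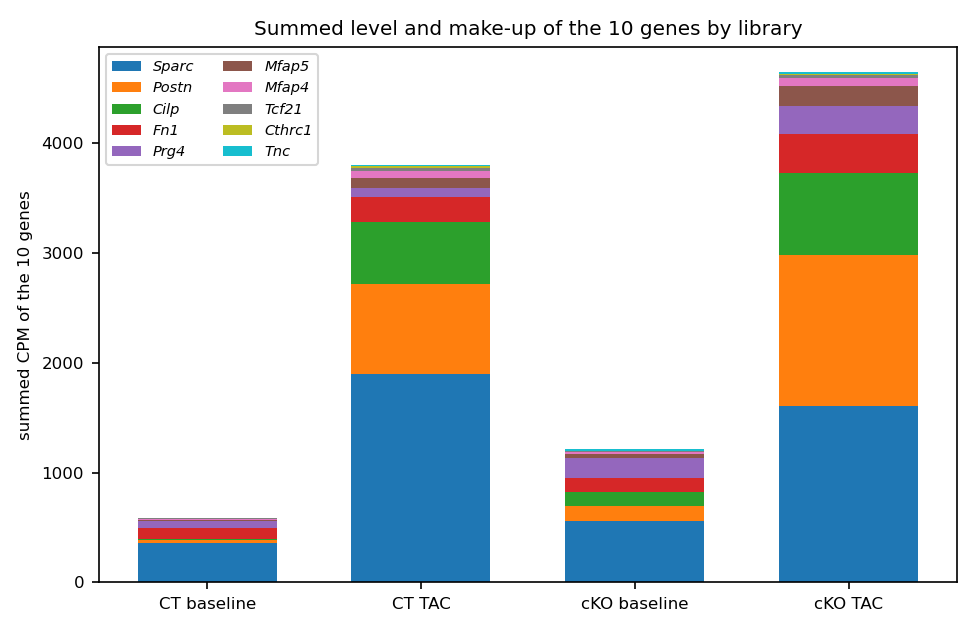
Summed CPM of the 10 genes in each library (linear axis from 0), split by gene. The sum is 588 CPM in CT baseline, 1217 in cKO baseline, 3799 in CT TAC and 4642 in cKO TAC, and Postn makes up 4.03% of it in CT baseline and 21.7% in CT TAC, against 11.2% and 29.5% in the cKO libraries.

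The load ratio (TAC over baseline) was smaller in cKO than in CT for Postn, Cilp, Tnc, Mfap4 and Sparc, beyond counting error. Each ratio has its own baseline and TAC library, with counting error alone as the error. For Cthrc1 the difference was -2.13, with no interval because CT baseline had no read. The log2 load ratio of cKO minus that of CT was -1.77 for Postn (counting SE 0.21), -2.97 for Cilp (SE 0.28), -2.49 for Tnc (SE 0.77), -2.04 for Mfap4 (SE 0.55) and -0.87 for Sparc (SE 0.08). Among these 5 genes the baseline level was higher in cKO than in CT beyond counting error, and the TAC level differed by at most 1.66-fold. For Mfap5 (-0.59, SE 0.33), Fn1 (0.20, SE 0.16), Tcf21 (0.41, SE 0.54) and Prg4 (0.01, SE 0.19) the difference was within 2 counting SE of 0. Between the unloaded cKO heart and the loaded CT heart, Postn was 6.07-fold, Cilp 4.39-fold, Mfap4 3.24-fold and Mfap5 2.08-fold higher in the latter, while Prg4 was 1.97-fold higher in the former (1.62 to 2.38).

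**Figure D4:**
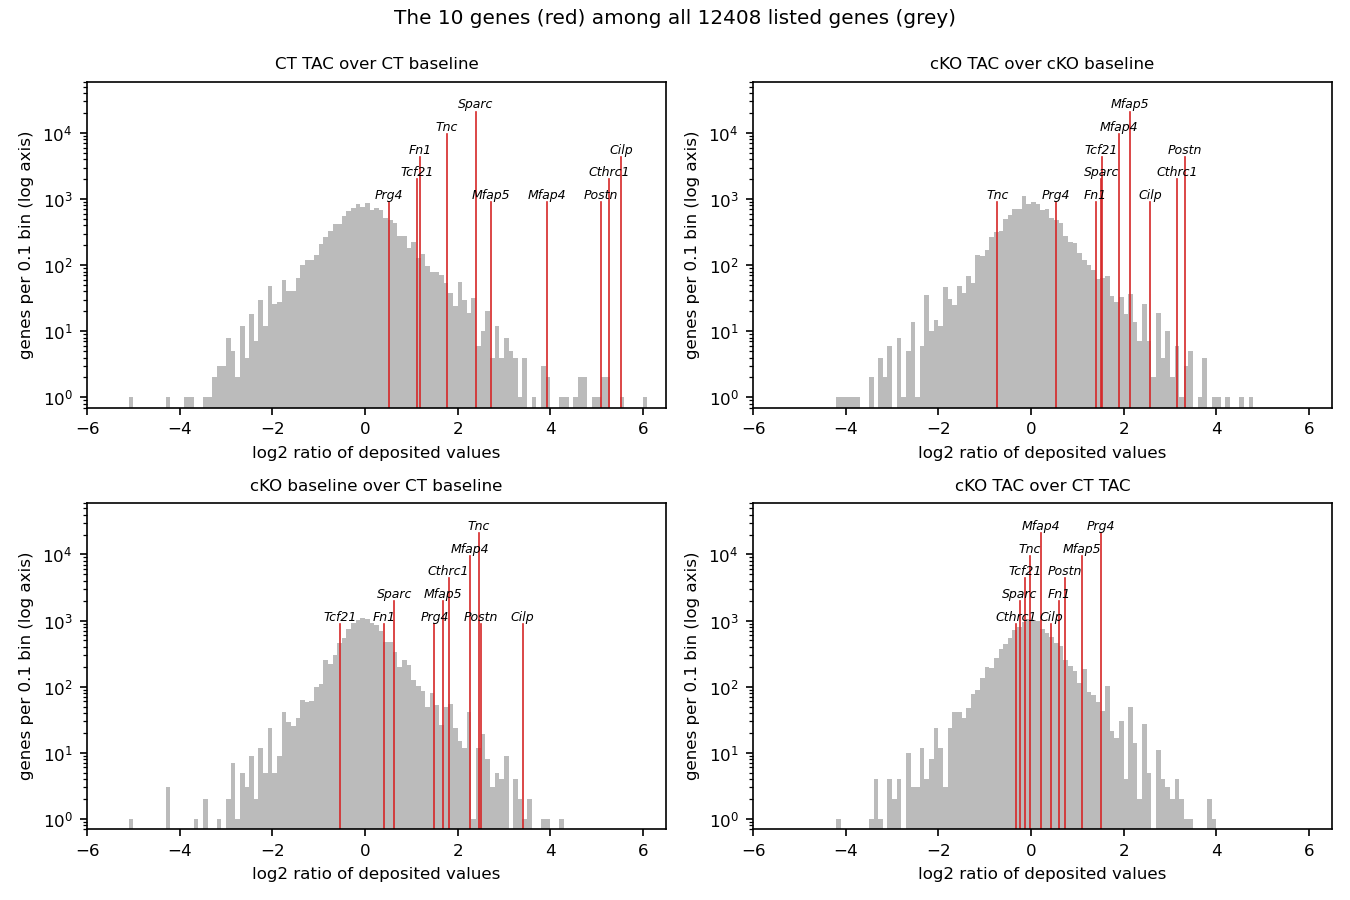
Histograms of the log2 ratio of all 12408 listed genes (grey, counts on a log axis) in the 4 pairs, with the 10 genes as red lines. In CT TAC over CT baseline Cilp, Cthrc1 and Postn lie at the far right end, and in cKO TAC over CT TAC the 10 genes lie between -0.32 and 1.51.

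To set the 10 genes against fibroblast content, reads were counted per 100 reads of 20 genes of resting fibroblasts in the same library. These 20 genes summed to 4664 CPM at baseline and 7976 under TAC in CT, and to 5978 and 9001 in cKO. Postn went from 0.509 to 10.4 per 100 such reads with TAC in CT and from 2.28 to 15.2 in cKO. Cilp went from 0.246 to 6.97 in CT and from 2.12 to 8.37 in cKO. Sparc went from 7.73 to 23.8 in CT and from 9.36 to 17.9 in cKO. Tcf21 went from 0.270 to 0.35 in CT and from 0.143 to 0.284 in cKO. Prg4 was at 1.32 and 1.11 in the CT libraries and at 2.92 and 2.82 in the cKO libraries. The denominator held genes that were themselves higher under load, so the scale is a description of these libraries.

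Genes most like Postn were sought among 9853 others with at least 40 reads in all, by the Euclidean distance of log2 values centred on each gene's mean over the 4 libraries. Among the nearest were Comp (distance 0.23), Ltbp2 (0.38), Thbs4 (0.97) and Wisp2 (1.01). Comp, cartilage oligomeric matrix protein, had log2 values of 1.94 and 7.19 in the CT libraries at baseline and under TAC, and of 4.68 and 8.07 in the cKO libraries. For Fn1 the nearest were Faap20 (0.10), Top2a (0.17), Frzb (0.17), Igfbp6 (0.19) and B3gnt8 (0.19). For Tcf21 they were Khk (0.09), P3h2 (0.12), Sat1 (0.12), Dnm1 (0.15) and Cep83 (0.16), of which Khk, Sat1 and Dnm1 did not have whole reads. The points are 4 per gene and share their libraries and depth.

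Among other genes of fibroblast activation and scar, 34 of 38 were listed. In CT TAC over CT baseline 27 were past 2-fold and higher, none was lower and the median log2 ratio was 2.46 (2.50 with genes at 0 reads at their bound). In cKO TAC over cKO baseline 22 were higher and none lower (median 1.39), in cKO baseline over CT baseline 16 and none (1.17), and in cKO TAC over CT TAC 4 and none (0.26). Thbs4, a thrombospondin of tendon and stressed heart, had 2.97 CPM in CT baseline, 15.3 in cKO baseline, 206 in cKO TAC and 235 in CT TAC. Fmod, a collagen-binding proteoglycan of tendon, had 1 and 2 reads at baseline and 62 and 53 under TAC in CT and cKO. Lox, a collagen crosslinking enzyme, went otherwise, with 5 reads in CT TAC against 39 in cKO TAC. This list was written with results of these libraries known.

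The 20 resting fibroblast genes were all listed. In CT TAC over CT baseline 10 were higher past 2-fold and 2 lower (median 0.99), and in cKO TAC over cKO baseline 7 were higher and none lower (0.54). At baseline 3 were higher in cKO and none lower (0.20), and under TAC 2 and none (0.13). Serpinf1, a secreted anti-angiogenic serpin, had 86.4 CPM at baseline and 751 under TAC in CT, and 166 and 716 in cKO. Scara5, a ferritin receptor that marks resting adventitial fibroblasts, had 12.6 and 3.99 CPM in CT, and 7.03 and 10.3 in cKO.

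Of the contractile genes of myofibroblasts, none of 19 was past 2-fold in CT TAC over CT baseline (median 0.04), and in cKO TAC over cKO baseline only Lmod1 was, lower (median -0.09). The list summed to 5839 CPM in CT baseline and 5260 in CT TAC. Myh11 on it is also a mural marker, and which cells the reads came from was not tested. Acta2, smooth muscle alpha-actin, separated the libraries by genotype label, with 202 CPM at baseline and 161 under TAC in CT, and 594 and 490.0 in cKO. Tagln, a smooth muscle actin-binding protein, was lower in cKO baseline (10.4 CPM) than in CT baseline (22.6), and it had 20.0 and 19.0 in the TAC libraries of CT and cKO. At baseline 1 of 19 was thus higher and 1 lower (median 0.18), and under TAC 1 was higher in cKO (median -0.00).

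Of 21 TGF-beta signal genes, the pathway that drives matrix production in fibroblasts, 4 were higher and 1 lower past 2-fold in CT TAC over CT baseline (median 0.21). In cKO TAC over cKO baseline 5 were higher (0.70), in cKO baseline over CT baseline 2 (-0.03) and in cKO TAC over CT TAC 4 (0.27), with none lower. The ligand gene Tgfb2 had 3.34 CPM at baseline and 11.5 under TAC in CT, and 22.0 and 20.7 in cKO. Like Tnc, it was lowest in CT baseline and not past 2-fold with TAC in cKO. Ctgf, a matricellular gene that both TGF-beta and YAP switch on, had 81.2 CPM at baseline and 291 under TAC in CT, and 354 and 852 in cKO.

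Of 29 receptor genes for the secreted products 26 were listed, and 3 were higher past 2-fold in CT TAC over CT baseline and none lower (median 0.38). In cKO TAC over cKO baseline 3 were higher and 1 lower (0.22), and in each genotype pair 1 was higher and 1 lower (0.21 at baseline and -0.01 under TAC). Itga11, which encodes the collagen receptor subunit alpha 11 of fibroblasts, had 8 reads at baseline and 29 under TAC in CT, and 6 and 17 in cKO. Itga9, a subunit of a tenascin C receptor, had 15.2 CPM at baseline and 40.2 under TAC in CT, and 28.1 and 25.6 in cKO.

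Partners and processing enzymes of the secreted proteins (22 of 23 listed) had 9 genes higher past 2-fold and 2 lower in CT TAC over CT baseline (median 0.63, or 0.81 with genes at 0 reads at their bound). In each of the other 3 pairs 4 were higher and none lower, with medians of 0.49 for TAC in cKO, 0.43 for cKO over CT at baseline and 0.54 under TAC. Fbn1, Eln, Lox, Col1a1 and Timp1 are also on the list of activation and scar genes, so these lists are not separate. In each of these 3 pairs most of the higher genes were among those shared. Timp1, an inhibitor of matrix metalloproteinases, had 7.66 CPM at baseline and 47.4 under TAC in CT, and 64.8 and 100.1 in cKO. Col1a1, a chain of type I collagen, was 2.63 log2 units higher under TAC in CT and 1.15 in cKO. Adamts1, a secreted protease, had 71.9 and 27.0 CPM in the CT libraries and 39.1 and 52.8 in the cKO libraries.

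Of 26 transcription factors of cardiac fibroblasts, Tcf21 among them, 22 were listed. In CT TAC over CT baseline 4 were higher past 2-fold and 2 lower (median 0.44), and in each other pair 2 were higher and none lower (medians 0.42 for TAC in cKO, 0.04 for genotype at baseline and -0.02 under TAC). Meox1 and Runx1 are also on the list of activation and scar genes. Meox1, a factor induced in activated fibroblasts, had 3.34 CPM at baseline and 33.4 under TAC in CT, and 12.2 and 23.4 in cKO. Its log2 load ratio was thus 3.15 in CT and 0.91 in cKO, where Tcf21 had 1.12 and 1.52.

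**Figure D5:**
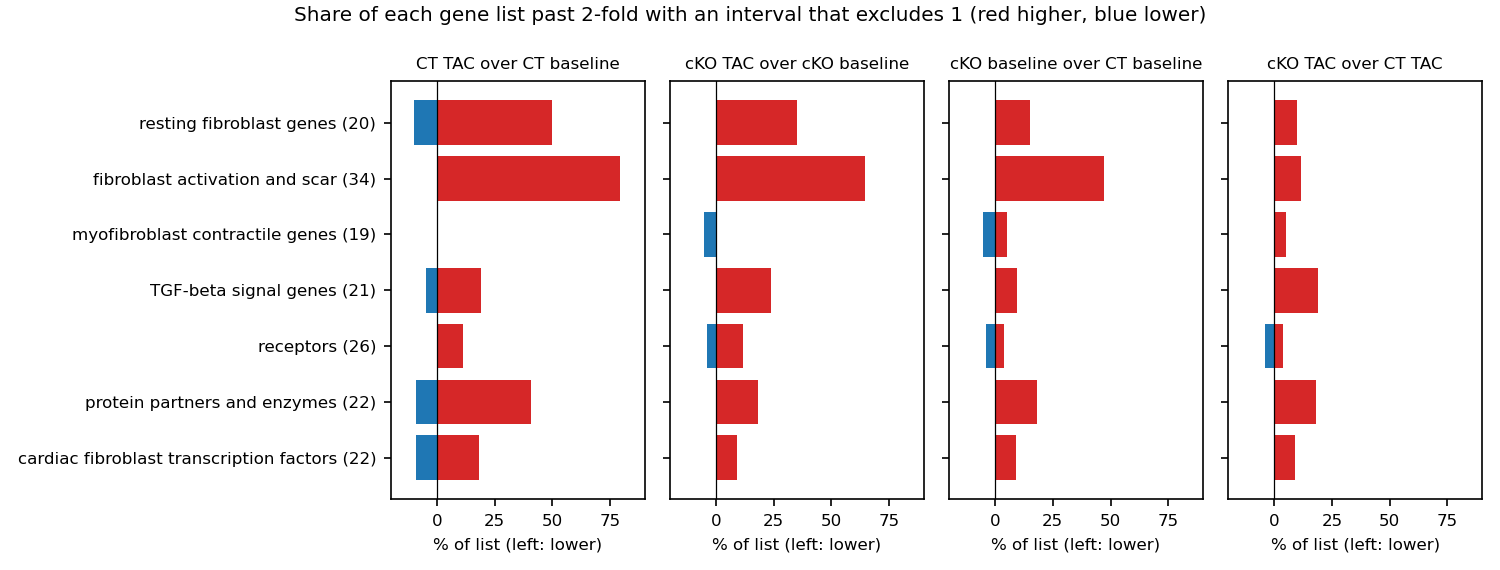
Share of the listed genes of each gene list (number in brackets) that was past 2-fold in each pair of libraries, higher to the right in red and lower to the left in blue. Activation and scar genes have the longest red bars in the first 3 pairs, from 16 to 27 of 34 genes, and myofibroblast contractile genes have none in CT TAC over CT baseline.

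Markers of other cells moved with some of these genes, and their part in the results was not tested. All 10 macrophage markers were listed, with none at 0 reads and sums of 439 CPM at baseline and 647 under TAC in CT, and 1000.1 and 888 in cKO. In cKO baseline over CT baseline 6 of them were past 2-fold and higher, the pair in which Postn, Cilp, Tnc, Mfap4, Mfap5 and Prg4 were higher too. In CT TAC over CT baseline 2 were higher, in cKO TAC over cKO baseline none was past 2-fold, and in cKO TAC over CT TAC, where Mfap5 and Prg4 were higher, 1 was higher. Endothelial markers (9 of 9 listed) summed to between 1760 and 2065 CPM with none past 2-fold in any pair. Mural markers (8 of 8) summed to between 3061 and 3830 CPM, with 1 lower in CT TAC over CT baseline. Of 11 epicardial and mesothelial markers 4 were listed, which summed to 14.5 CPM at baseline and 34.4 under TAC in CT, and to 41.0 and 51.1 in cKO. In CT TAC over CT baseline 2 of them were higher, and in cKO baseline over CT baseline 2. In cKO TAC over cKO baseline Krt18 was higher and Aldh1a2 lower, and in cKO TAC over CT TAC Krt18 was higher. Upk3b, Msln and Krt19 were not among the listed genes. Of 11 valve, tendon and cartilage markers 5 were listed, with sums of 14.5 CPM at baseline and 191.7 under TAC in CT, and 40.4 and 323 in cKO. With TAC 4 were higher and 1 lower in CT, and 3 were higher in cKO. Comp, which is also on the scar list, made up 146 CPM of the sum in CT TAC and 268 in cKO TAC. Tnmd, which defines tendon cells, had 0 reads in both baseline libraries and 8 and 4 reads in the TAC libraries of CT and cKO, and Acan and Col2a1, which define cartilage, were not listed. Of 6 atrial markers 3 were listed and Myl7 and Sln were not. With TAC 2 of the 3, Nppa and Dkk3, were higher past 2-fold in each genotype. Nppa, which loaded ventricles also make, had 129 CPM at baseline and 3594 under TAC in CT, and 2035 and 6487 in cKO. Dkk3 had few reads, 3 at baseline and 12 under TAC in CT, and 1 and 18 in cKO. In cKO baseline over CT baseline only Nppa was past 2-fold, and the median log2 ratio of the 3 was below 0. In cKO TAC over CT TAC none was past 2-fold.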

How the data were processed

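Log2 CPM values were deposited by the authors as 1 table per library with a gene symbol and a log2 value for 12408 genes. The unit was read from the values. CASAVA, HISAT2, edgeR and mm10 appear in the submitters' processing notes, without versions or roles. How reads were counted, with which annotation and gene filter, is not given in the sources used here. On the linear scale the values of each library fall on a grid, from which the read worth (0.371 to 0.612 CPM), the reads added per gene (0.800 to 1.32) and the scaling factor (0.965 to 1.04) were recovered. Reads were whole to within 0.01 for 88.5% to 89.0% of genes per library. In at least 1 library 2453 genes had fractional reads, Postn, Fn1 and Prg4 among them. Every pair of libraries differed by more than counting noise (chi-square over its degrees of freedom from 7.66 to 21.0).

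Ratios are of recovered reads over scaled library sizes, and list medians are of differences of the deposited log2 values. Reads were rounded for intervals, which cover counting error only. PCR copies are not independent molecules, so the intervals may be too narrow even for that error. Recovery and intervals were tested on simulated whole reads only, so fractional reads were not covered. Smaller values of the read worth fit slightly more genes, and the largest value close to the best fit was taken. Exon lengths and positions come from GENCODE M21 (mm10). Python 3.11.15, scipy 1.17.1 and pandas 2.3.3 were used. The genes and lists were chosen with earlier results of these data known. In each list the named genes were picked from the 3 highest and 2 lowest CT load ratios among genes past 2-fold in any pair. No batch is labelled. Some items are not reported here.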

Additional observations from a re-analysis of the deposited data

Results flagged for a closer look

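For 3 of the 10 genes the values of 2 pairs of libraries had opposite signs, and only for Sparc were both ratios beyond counting error. With 1 mouse per group the differences were not tested. For Tnc the log2 ratio of TAC over baseline was 1.76 in CT and -0.73 in cKO, a difference of -2.49. The same 4 values give a log2 ratio of cKO over CT of 2.46 at baseline and -0.03 under TAC, again -2.49 apart, with 7 to 27 reads per library. For Cthrc1 cKO over CT was 1.81 at baseline, on 2 reads against 0, and -0.32 under TAC, a difference of -2.13 that depends on the read added before the logarithm. For Sparc cKO over CT was 0.63 at baseline and -0.24 under TAC, a difference of -0.87 on 915 or more reads per library.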

How the results depend on the processing

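The counts of genes past 2-fold were recomputed with total reads as library size, with a further 1 CPM added, with no added read, at a mean CPM of at least 5, at 1.5-fold, without the interval, and without Postn, Fn1 and Prg4, whose reads are not whole. The only count that moved by over 1.5 times was that of cKO TAC over CT TAC, 2 of 10 genes, which was 4 at 1.5-fold and 1 of 7 without those genes. The load ratio was lower in cKO by at least 2-fold, beyond counting error, for 4 genes, also with total reads and with a further 1 CPM. Of the log2 ratios of single genes, 40 of 40 stayed within their counting interval with a further 1 CPM. With no added read 38 of 38 did (Cthrc1 gives none in 2 pairs), and with total reads 38 of 40. The 2 that left their interval were both in cKO TAC over CT TAC. Postn moved from 0.73 to 0.82 and Sparc from -0.24 to -0.14. No called ratio changed sign. Total reads moved the median of all genes by at most 0.10 log2. No replicate could be left out. No paired analysis was possible because each group holds 1 library. Depth limits Cthrc1, Tnc and Tcf21, with 0 to 56 reads per library.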

Other observations

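Several genes from the lists above were lower in CT TAC than in CT baseline and higher in cKO TAC than in CT TAC. Each was past 2-fold, which is unlike any of the 10 genes described. Of all genes 4.68% were lower in the first pair and 2.93% higher in the second, and the share with both was not counted. Which cells the reads came from was not tested. Spock2, a secreted relative of SPARC, had 24 reads at baseline and 2 under TAC in CT, and 8 and 12 in cKO. Klf15, a transcription factor known to restrain cardiac hypertrophy and fibrosis, had 43.7 CPM at baseline and 7.49 under TAC in CT, and 31.2 and 21.8 in cKO. Scx, the tendon transcription factor, had 26 and 8 reads in the CT libraries and 19 and 26 in the cKO libraries. Hsd11b1, which regenerates active glucocorticoid, had 41 and 13 in CT, and 18 and 27 in cKO. Scara5, given above, is of the same kind. These genes were grouped after their values were seen, each library is 1 mouse, and the reads are few.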
